A study of Mus musculus with 21 samples.

Results

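The 6 actin genes of the mouse, Acta1, Acta2, Actb, Actc1, Actg1 and Actg2, were followed in hearts of CD1 embryos that had lost CHD4 and in hearts that had kept it. They were taken by symbol from the 24509 genes of the deposited expression tables, and all 6 were found at both stages and passed the filter on low values. The null hearts carried Chd4 Δflox/Δflox, the recombined form of the floxed gene, and the flox hearts carried Chd4 flox/flox, the unrecombined control. Polyadenylated RNA was sequenced from 5 null and 5 flox libraries at embryonic day (E) 9.5 and from 3 null and 3 flox libraries at E10.5, described by the submitters as biological replicates. Chromatin bound by CHD4 was immunoprecipitated and sequenced from wild-type CD1 hearts at E10.0, which gave 3 lists of peaks from 2 biological samples with 3 technical replicates. The recombinase that removed the floxed segment, and whether hearts were pooled, are not given in the sources used here. CHD4 is the remodelling ATPase of the NuRD complex, and the title of the study names control of sarcomere formation by CHD4 as its subject.

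Actin is the subunit of the thin filament in muscle and of the microfilaments in every cell. The 6 vertebrate genes encode almost the same protein: Acta1 the actin of adult skeletal muscle, Actc1 that of adult heart muscle, Acta2 and Actg2 the actins of vascular and of visceral smooth muscle, and Actb and Actg1 the actins of non-muscle cells. The embryonic heart is known to use skeletal and smooth muscle actins beside the cardiac one before the cardiac actin takes over. Serum response factor (SRF), with its cofactors myocardin and the myocardin-related factors, binds a short motif, the CArG box, in the promoters of several muscle actin genes and is the best known activator of this family.

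The 250 bases upstream of the annotated start of 4 of the genes are shown because CHD4 peaks are placed on them further on. They come from RefSeq on GRCm38.p6, a release of the assembly also called mm10, and each lies on the minus strand and is written 5′ to 3′ toward the gene. Capitals mark CArG boxes and stretches that are a CArG box but for 1 letter of the A/T core. The windows are chr8:123894776-123895025 for Acta1, chr2:114052876-114053125 for Actc1, chr19:34255374-34255623 for Acta2 and chr11:120348496-120348745 for Actg1.
Acta1: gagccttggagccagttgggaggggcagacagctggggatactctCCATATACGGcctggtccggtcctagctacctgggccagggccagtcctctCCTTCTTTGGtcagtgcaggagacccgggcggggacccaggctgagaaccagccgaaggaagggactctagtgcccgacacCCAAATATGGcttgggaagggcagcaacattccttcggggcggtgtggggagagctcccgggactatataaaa
Actc1: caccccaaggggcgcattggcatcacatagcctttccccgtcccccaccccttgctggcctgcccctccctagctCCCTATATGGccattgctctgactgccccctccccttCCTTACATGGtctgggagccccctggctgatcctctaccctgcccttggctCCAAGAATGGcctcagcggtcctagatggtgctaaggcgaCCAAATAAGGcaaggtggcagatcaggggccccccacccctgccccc
Acta2: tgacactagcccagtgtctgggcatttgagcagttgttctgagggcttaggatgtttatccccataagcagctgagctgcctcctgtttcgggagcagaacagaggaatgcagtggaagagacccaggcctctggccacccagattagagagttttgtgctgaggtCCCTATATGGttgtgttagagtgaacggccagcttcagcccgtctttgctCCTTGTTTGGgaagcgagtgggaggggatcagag
Actg1: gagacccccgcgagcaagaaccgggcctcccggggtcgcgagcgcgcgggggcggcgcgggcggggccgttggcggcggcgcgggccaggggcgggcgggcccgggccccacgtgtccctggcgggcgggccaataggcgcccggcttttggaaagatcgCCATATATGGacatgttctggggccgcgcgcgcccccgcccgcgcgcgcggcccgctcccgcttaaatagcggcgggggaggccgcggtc
A full CArG box stood in the windows of Acta1, Actc1 and Actg1, and 1.47% of all 32817 upstream windows of the same length held one on either strand. In Acta1 it was CCAAATATGG, bases 73 to 64 before the start. In Actc1 it was CCAAATAAGG, bases 47 to 38 before the start, and in Actg1 it was CCATATATGG, bases 90 to 81 before the start. The window of Acta2 held no full box and 2 stretches with 1 changed letter, CCCTATATGG at bases 84 to 75 and CCTTGTTTGG at bases 34 to 25, and 7.25% of windows held such a stretch. The same 10 letters, CCCTATATGG, were found in Actc1 at bases 175 to 166. Acta1 also held CATTCC, the core of the motif of TEAD factors, at bases 46 to 41, and Acta2 held its reverse complement, against 12.6% of windows on either strand. A match to these letters describes the window and is not a measured binding site.

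Depth was 17.1 to 20.1 M reads in null and 19.6 to 23.5 M in flox libraries at E9.5, and 18.02 to 18.9 M in null and 17.3 to 18.002 M in flox libraries at E10.5, where M stands for 1000000. RPKM is reads per kilobase of gene length and per M reads of the library, so levels of different genes can be set side by side. Chd4 averaged 45.7 ± 3.08 RPKM in null and 92.4 ± 1.33 RPKM in flox hearts at E9.5 (SD, n = 5 each; log2 difference -1.01, limma adjusted p 1.69e-06). At E10.5 it averaged 52.7 ± 4.61 RPKM in null and 77.6 ± 12.3 RPKM in flox hearts (SD, n = 3 each; -0.55, limma adjusted p 0.116), and null libraries lay below flox libraries at both stages. Whole hearts were sequenced, so fewer cells of a type and less RNA per cell cannot be told apart. One control library, flox E10.5 library 2, stood apart with low muscle genes and erythroid markers of 67944 summed RPKM, against 24207 and 24751 in the other flox libraries of that stage, and values with and without it are given where it touches a result. The null group of E10.5 was not uniform either. Its library 3 held erythroid markers of 141704 summed RPKM, against 58110 and 46400 in the other null libraries of that stage. Heart muscle RNA was abundant in every library (Myl7, an atrial myosin light chain gene, at 1384 RPKM or more), while the summed RPKM of 8 skeletal muscle markers such as Myod1 and Myog was 0.277 to 0.346 in null and 0.233 to 0.524 in flox hearts at E9.5.

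The order of the actin genes was much the same in all 4 groups. Actc1 was the most abundant in each, with a mean of 6239 RPKM in null and 7921 RPKM in flox hearts at E9.5, and 5514 RPKM in null and 4994 RPKM in flox hearts at E10.5. Acta2 followed in each group. The third place differed: it was held by Acta1 in null hearts at both stages and by Actb in flox hearts at both stages. In flox hearts at E9.5 Actb exceeded Acta1 in 5 of 5 libraries although the ranges of the pair overlapped, and in null hearts at E9.5 Acta1 exceeded Actb in 5 of 5 with no overlap. At E10.5 the ranges of Acta2 and Acta1 and those of Acta1 and Actb overlapped in null hearts, and the ranges of Acta2 and Actb overlapped in flox hearts. Actg1 and Actg2 lay far below, at no more than 11.3 RPKM in any of the 16 libraries. Actg1 rested on 134 to 421 reads per library. It is uncertain in these tables: actin genes have processed copies elsewhere in the genome (Actb-ps1 and Actg-ps1 in RefSeq), and the sources used here do not give how reads that fit several places were treated.

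**Figure D1:**
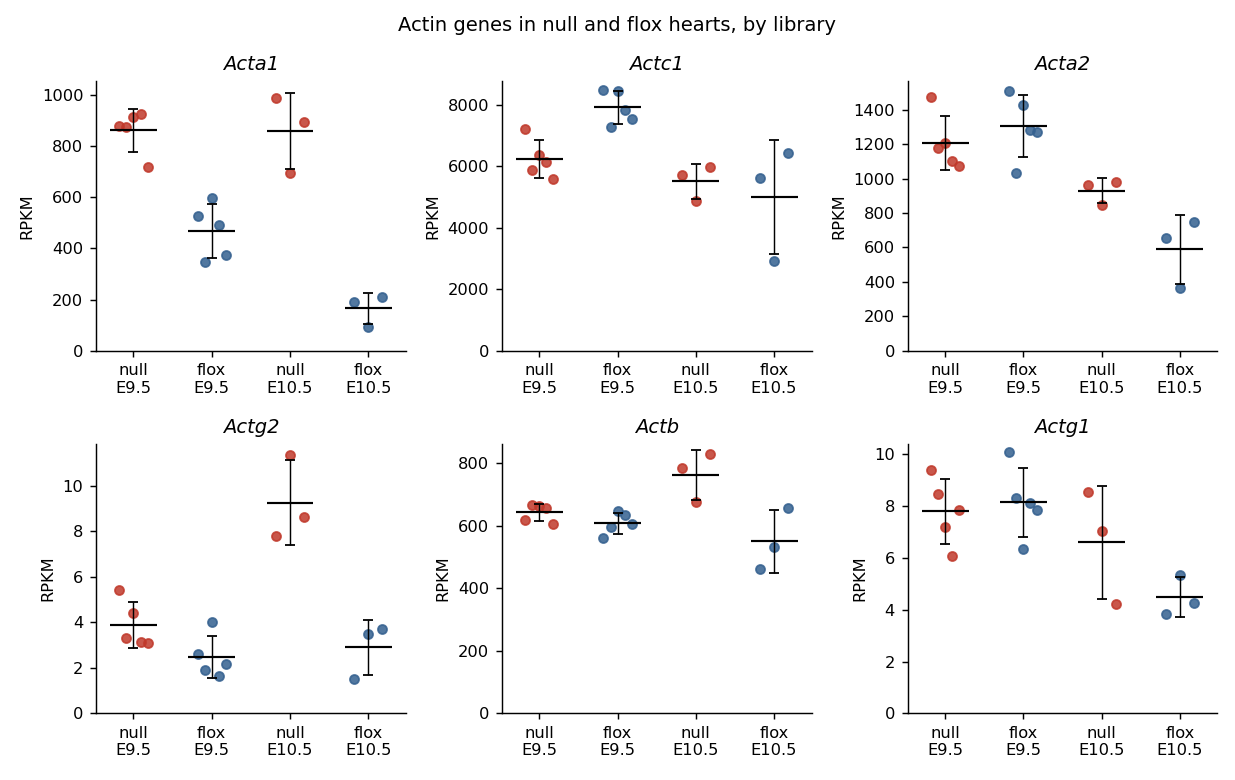
RPKM of each actin gene in every library (points), by group, with the mean (line) and SD (error bar), n = 5 per group at E9.5 and n = 3 at E10.5; each panel has its own linear axis from 0. Null libraries of Acta1 lie between 696 and 988.9 RPKM at the 2 stages, all above the flox libraries, which lie between 94.5 and 599 RPKM.

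Acta1, the skeletal muscle actin gene, was higher in null hearts at both stages. At E9.5 its RPKM was 881, 877, 913, 926 and 718 in the null libraries, against 526.03, 346, 599, 491 and 374 in the flox libraries. The groups did not overlap, and the lowest null library, number 5, stood apart from the other 4. The means were 863 ± 83.9 RPKM in null and 467 ± 106 RPKM in flox hearts (SD, n = 5 each), a log2 difference of 0.91 with a standard error of 0.146 on the log2(RPKM + 0.5) scale (limma adjusted p 0.00254). Acta1 and Actc1 were the 2 of 6 actin genes called at E9.5, where 17.2% of all 13643 genes tested were called, 6.87% with a rise and 10.3% with a fall.

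At E10.5 Acta1 stood at 988.9, 696 and 894 RPKM in the null libraries, against 190, 94.5 and 211 RPKM in the flox libraries. The groups were far apart, with no overlap. The log2 difference was 2.44 with a standard error of 0.311 (limma adjusted p 0.01002), and without flox library 2 it was 2.08 (limma adjusted p 0.0106). Without null library 3 it was 2.41 (limma adjusted p 0.0354). Acta1 and Actg2 were the 2 of 6 called at this stage, against 2.07% of all 14100 genes tested, 1.77% with a rise and 0.305% with a fall. Of the genes tested at E10.5, 57 rose at least as much as Acta1 on the fitted log2 scale, Acta1 included.

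The difference between null and flox hearts was larger at E10.5 than at E9.5. In 1 fit of all 16 libraries the log2 difference of Acta1 was 1.54 greater at E10.5 (standard error 0.329, limma adjusted p 0.0298), which made it the 1 of 6 actin genes called for this contrast, against 3.82% of all genes. The stages were deposited as separate tables, so levels were not tested between them: side by side, the null means were 863 RPKM at E9.5 and 859.9 RPKM at E10.5, and the flox means were 467 and 165 RPKM. The call ended when any 1 of 7 libraries was left out, null E9.5 library 3 or 5, flox E9.5 library 1, 3 or 4, or flox E10.5 library 1 or 2, with limma adjusted p of 0.0512, 0.0645, 0.0551, 0.0510, 0.0542, 0.0627 and 0.0584 in that order, and the value stayed between 1.18 and 1.68.

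Some markers of other cells moved with Acta1. All 9 erythroid markers tested were called higher in null hearts at E9.5, with a summed RPKM of 27769 to 75026 in null and 10966 to 27974 in flox libraries, ranges that overlap by 1 library on each side. With their mean log2 level as a covariate the difference of Acta1 at E9.5 was 0.66 with a standard error of 0.261 (limma adjusted p 0.483), and that level did not overlap between the groups (7.69 to 8.84 in null, 6.35 to 7.61 in flox), so the pair cannot be told apart in this fit. At E10.5, 1 of 7 epicardial markers was called, the keratin gene Krt19, at 85.9 to 176 RPKM in null and 16.9 to 27.3 RPKM in flox libraries. The other 6 summed to 150 to 206 RPKM in null and 189 to 202 RPKM in flox libraries, which overlap, and the median log2 difference of the 7 was -0.06. With the mean log2 level of the 7, Krt19 included, as a covariate the difference of Acta1 at E10.5 was 2.40 with a standard error of 0.484 (limma adjusted p 0.0720). Of the 8 skeletal muscle markers, 2 were at 0 in every null library and 5 in every flox library at E9.5, and at E10.5 their sum was 0.445 to 1.88 RPKM in null and 0.193 to 4.12 RPKM in flox hearts. Of 8 heart muscle markers none was called at E10.5. Their median log2 difference was 0.33, against -0.03 over all genes tested, and Myh6 alone was lower in null hearts (-0.13). Their summed RPKM was 6350, 4591 and 6910 in the null libraries, against 4889, 3103 and 5194 in the flox libraries. Of 8 cushion mesenchyme markers 1, the collagen gene Col1a1, was called higher at E10.5 (1.09, limma adjusted p 0.0192). The median of that list was -0.14. The part of all these markers in the level of Acta1 was not tested.

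**Figure D2:**
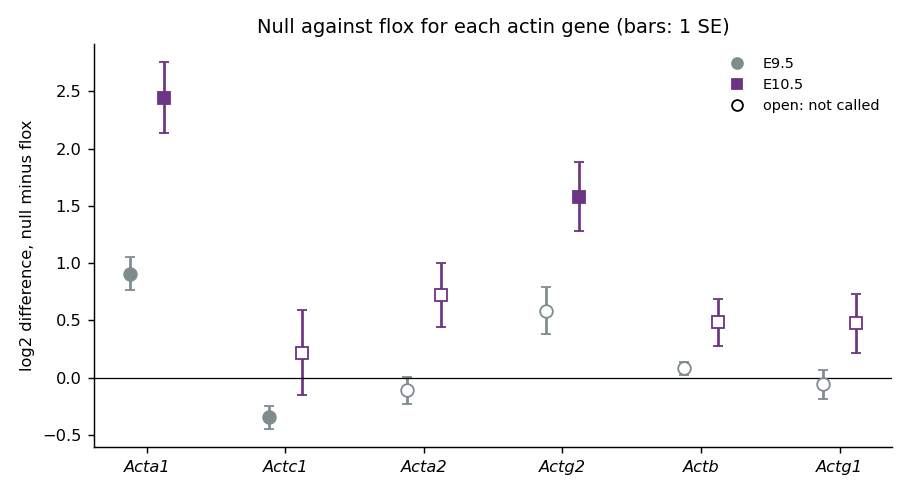
Log2 difference of null minus flox hearts for each actin gene at E9.5 (circles) and E10.5 (squares), with 1 standard error; filled symbols passed limma's adjusted p under 0.05. Acta1 is filled at both stages (0.91 and 2.44), Actc1 at E9.5 (-0.35) and Actg2 at E10.5 (1.58).

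Actc1, the cardiac actin gene and the largest source of actin RNA in these hearts, was lower in null hearts at E9.5. Its RPKM was 7213, 5875, 6366, 6140 and 5601 in the null libraries, against 8498, 7271, 8454, 7834 and 7552 in the flox libraries. The highest null library lay just under the lowest flox library. The log2 difference was -0.35 with a standard error of 0.0989 (limma adjusted p 0.0349), and after quantile scaling it was -1.05 (limma adjusted p 0.000166). Quantile scaling sets each value by its rank in the library. The globin genes Hbb-bh1, Hbb-y and Hba-x were at 8714 to 26886 RPKM in null and 3193 to 9996 RPKM in flox libraries. Their part in the quantile value was not tested. Under other settings the call of Actc1 was close to the threshold: the adjusted p was 0.0620 after scaling to equal medians and between 0.0597 and 0.0886 when null library 2, 3, 4 or 5 or flox library 1, 3, 4 or 5 was left out, with a log2 difference of -0.36 to -0.31 in each. With no filter on low values, where 19957 genes were tested, the limma adjusted p was 0.581 at the same log2 difference of -0.35. In that fit 2 of the 6 actin genes had an unadjusted p under 0.05, against 3 with the filter. The cause of this change was not tested. With the erythroid level, the epicardial level or the sex of the library as a covariate the limma adjusted p was 0.687, 0.0670 or 0.107. The log2 difference was -0.29, -0.26 and -0.28 in that order, with standard errors of 0.166, 0.0830 and 0.0989. The erythroid level did not overlap between null and flox hearts. Sex was not balanced between null and flox hearts. At E9.5 Xist exceeded the Y-linked gene Ddx3y in null libraries 1 and 3 and in flox libraries 1, 2, 3 and 4. At E10.5 it did so in null library 2 and in flox libraries 1 and 3. Beside Actc1, 2 of 8 heart muscle markers were called lower at E9.5, the atrial myosin heavy chain gene Myh6 (log2 difference -0.76) and the Z-disc actinin gene Actn2 (-0.51), and their part in the result was not tested.

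At E10.5 Actc1 was at 5709, 4865 and 5968 RPKM in the null libraries, against 5621, 2911 and 6449 RPKM in the flox libraries. The groups overlapped, and flox library 2 held less than the other 5. The log2 difference was 0.22 with a standard error of 0.372 (limma adjusted p 0.754), and it was -0.13 without flox library 2 and -0.45 after quantile scaling, so its direction turned in both. Between stages the difference of Actc1 changed by 0.56 (limma adjusted p 0.242), and by 1.34 after quantile scaling (limma adjusted p 0.0457).

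Acta2, the vascular smooth muscle actin gene, was not called at either stage. At E9.5 it stood at 1472, 1175, 1208, 1104 and 1071 RPKM in the null libraries and at 1509, 1033, 1426, 1284 and 1271 RPKM in the flox libraries, with overlap (log2 difference -0.11, limma adjusted p 0.550). At E10.5 it stood at 963, 847 and 981 RPKM in the null libraries, all above the 654, 365 and 745 RPKM of the flox libraries (0.72, standard error 0.282, limma adjusted p 0.184). Without flox library 2 the E10.5 difference was 0.41. Null libraries lay wholly above or below flox libraries for 4 of 6 actin genes at E10.5, against 31.3% of all genes, and for 2 of 6 at E9.5, against 14.1%. Among 6 other smooth muscle markers, Myh11, the smooth muscle myosin heavy chain gene, was called higher in null hearts at both stages (2.45 at E9.5 and 2.74 at E10.5). The other 5 were called at neither. At E10.5 all 5 stood higher in null hearts: Lmod1 0.71, Cnn1 0.42, Tagln 0.38, Smtn 0.30 and Mylk 0.30. Lmod1 and Tagln showed no overlap there. The median log2 difference of the 6 was 0.40, against -0.03 over all genes tested, and at E9.5 it was -0.05, against -0.04. Flox library 2 held 340 summed RPKM of the 6, against 532 and 547 in the other flox libraries of E10.5. The part of these markers in the level of Acta2 was not tested.

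Actg2, the visceral smooth muscle actin gene, was the rarest actin in 3 of the 4 groups. At E9.5 its RPKM was 5.44, 3.32, 4.43, 3.15 and 3.08 in the null libraries, against 2.60, 1.89, 4.01, 1.66 and 2.17 in the flox libraries. One flox library, number 3, lay within the null range and the difference was not called (0.58, standard error 0.208, limma adjusted p 0.0765). Without that library it was 0.75 (limma adjusted p 0.0193), and it was also called with library weights (0.64, limma adjusted p 0.0261) and with the epicardial level as a covariate (0.79, limma adjusted p 0.0241). At E10.5 its RPKM was 7.77, 11.3 and 8.62 in the null libraries, against 1.49, 3.49 and 3.71 in the flox libraries, with no overlap. The log2 difference was 1.58 with a standard error of 0.3002 (limma adjusted p 0.0388). The call rested on 183 to 280 reads per null library and 35 to 84 reads per flox library, and it ended when any library but null 1 was left out (limma adjusted p 0.0794 to 0.0916, log2 difference 1.23 to 1.77). It also ended with no filter on low values (limma adjusted p 0.0885) and with each of the 3 covariates (0.119 to 0.128).

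The non-muscle actins were not called. Actb, often used as a reference gene, was at 620, 666, 664, 658 and 606 RPKM in the null libraries and at 561, 595, 646, 633 and 606 RPKM in the flox libraries at E9.5, with overlap (log2 difference 0.08, limma adjusted p 0.371). At E10.5 it was at 784, 675 and 829.8 RPKM in the null libraries, above the 460, 532 and 657 RPKM of the flox libraries (0.48, standard error 0.206, limma adjusted p 0.210). Actg1 overlapped at both stages (log2 difference -0.06 and 0.47, limma adjusted p 0.781 and 0.298), at 6.07 to 9.39 RPKM in null and 6.36 to 10.1 RPKM in flox hearts at E9.5, and at 4.23 to 8.52 RPKM in null and 3.83 to 5.34 RPKM in flox hearts at E10.5.

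Acta1 was a larger part of the actin RNA in null hearts, and Actc1 a smaller one. Acta1 was 9.65 ± 0.804% of the summed RPKM of the 6 genes in null and 4.49 ± 0.701% in flox hearts at E9.5 (SD, n = 5 each), and 10.6 ± 0.977% in null and 2.59 ± 0.163% in flox hearts at E10.5 (SD, n = 3 each). Actc1 made up 69.6 ± 0.886% in null and 76.9 ± 1.01% in flox hearts at E9.5, and 68.2 ± 0.660% in null and 78.5 ± 3.56% in flox hearts at E10.5. Without flox library 2 the flox means at E10.5 were 2.68% for Acta1 and 80.5% for Actc1. Of the striated muscle pair alone, Acta1 was 12.2 ± 1.001% in null and 5.52 ± 0.871% in flox hearts at E9.5, and 13.4 ± 1.18% in null and 3.19 ± 0.0658% in flox hearts at E10.5. The 3 flox libraries of E10.5, library 2 included, held this share within 3.15 to 3.27%. The 4 muscle actins together were 92.7% of the sum in null and 94.0% in flox hearts at E9.5. At E10.5 they were 90.6, 90.4 and 90.4% in the null libraries, against 93.3, 86.3 and 91.8% in the flox libraries, where library 2 was the low one; the flox mean was 90.5% with it and 92.6% without it, against 90.5% in null hearts. The summed RPKM of all 6 was 8006 to 10201 in null and 9254 to 11135 in flox libraries at E9.5, and 7102 to 8686 in null and 3911 to 8071 in flox libraries at E10.5. Shares and sums of the 6 take Actg1 as deposited, and its level is uncertain for the reasons given above.

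**Figure D3:**
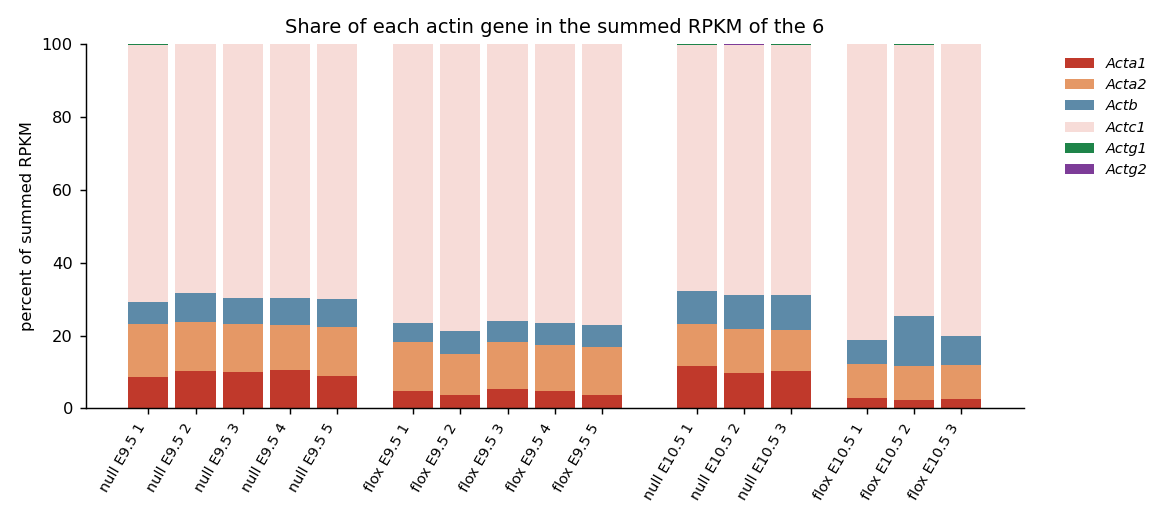
Percent of the summed RPKM of the 6 actin genes that each gene holds in every library (stacked bars, 0 to 100%). The Acta1 segment at the base holds 8.63 to 11.7% in null libraries and 2.42 to 5.38% in flox libraries over the 2 stages; Actg1 and Actg2 are too small to see in most bars.

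Ratios within a library leave out scaling that its genes share, and 6 pairs were tested by exact permutation, two-sided, with p-values adjusted over the 6. At E9.5 the log2 ratio of Acta1 to Actc1 was -2.85 ± 0.137 in null and -4.11 ± 0.244 in flox hearts, and that of Acta1 to Acta2 was -0.48 ± 0.186 in null and -1.50 ± 0.194 in flox hearts (SD, n = 5 each). The differences of 1.26 and 1.02, those of Acta2 to Actc1 (0.24), Acta2 to Actg2 (-0.69) and Actc1 to Actb (-0.43), all showed groups without overlap, each with an exact p of 0.00794, the smallest that 5 against 5 can give, and 0.00952 after adjustment. The ratio of Actb to Actg1 overlapped (0.14, exact p 0.460). At E10.5 the differences were 2.23 for Acta1 to Actc1, 1.72 for Acta1 to Acta2 and 0.51 for Acta2 to Actc1, again without overlap in the 3 null and 3 flox libraries, where an exact p cannot go below 0.1 (adjusted 0.2). Without flox library 2 these were 2.22, 1.67 and 0.54. The E10.5 ratios of Acta2 to Actg2, Actb to Actg1 and Actc1 to Actb overlapped.

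In the authors' deposited table, where a negative log2 fold change means higher in null, Acta1 had -0.84 at E9.5 and -2.08 at E10.5. In the authors' deposited table Actc1 had 0.30 at E9.5, and Actg2 had -0.52 at E9.5 and -1.36 at E10.5. The other actin genes were not among the genes listed there, which are 12.6% of all genes at E9.5 and 5.54% at E10.5. Chd4 was listed there at both stages, with 0.97 at E9.5 and 0.50 at E10.5, lower in null.

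The proteins that handle actin were read from 6 lists. At E9.5, 11 of the 75 list genes tested were called, 14.7% against 17.2% of all genes, and 4 of these rose and 7 fell. Of 16 genes that bind actin monomers or turn filaments over, 1 rose, the monomer-sequestering thymosin gene Tmsb4x (log2 difference 0.45, limma adjusted p 0.0296), and 3 fell, the cyclase-associated protein gene Cap2 (-0.38, limma adjusted p 0.0174), the twinfilin gene Twf2 (-0.25, limma adjusted p 0.0268) and the coronin gene Coro1b. In the Arp2/3 complex, which starts branched filaments, Arpc5 rose (0.28, limma adjusted p 0.0147) as 1 of 9. Among 17 formins and other nucleators the formin gene Diaph3 rose (0.35, limma adjusted p 0.00412), and among 10 crosslinkers the plastin gene Lcp1 rose (0.46, limma adjusted p 0.0105). Of 15 genes that fold actin, the chaperonin and prefoldin subunits, none was called by limma, and 2 had an unadjusted p under 0.05.

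SRF and its cofactors held the largest share of falls among the 6 lists, 4 of 8 at E9.5, against 10.3% of all genes tested. Srf averaged 36.4 ± 5.92 RPKM in null and 49.1 ± 6.01 RPKM in flox hearts (SD, n = 5 each; log2 difference -0.43, limma adjusted p 0.0265). Myocd, which encodes myocardin, averaged 24.2 ± 5.28 RPKM in null and 31.8 ± 3.00 RPKM in flox hearts (-0.41, limma adjusted p 0.0481). Mkl2, a myocardin-related cofactor, and Elk1, a ternary complex factor, had log2 differences of -0.23 and -0.26 (limma adjusted p 0.0456 and 0.0151). Groups overlapped for Srf and Myocd and did not for Mkl2 and Elk1. The other 4 were not called: Abra, which encodes the actin-binding striated muscle protein STARS (-0.63, limma adjusted p 0.0614), Mkl1 (-0.08), Elk3 (0.13) and Elk4 (0.13). The median log2 difference of the list was -0.24, against -0.04 over all genes tested. Heart muscle markers stood lower beside it, with a median of -0.28 and 2 of 8 called (Myh6 and Actn2), and their part was not tested. The 4 falls were 0 with the erythroid level or the sex of the library as a covariate, 1 with the epicardial level, 2 with median or quantile scaling, rescaling without the most abundant genes or no filter, 5 with library weights, and 1 without the 3 E9.5 libraries low in epicardial markers, a setting chosen after seeing the data. They were 1 without null library 5 or flox library 1, 3 or 5, 2 without null library 2 or 3 or flox library 4, and 3 to 5 without any other.

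At E10.5 limma called none of the 79 list genes tested, where 2.07% of all genes were called and 13 of the 79 had an unadjusted p under 0.05. voom on the recovered reads also called 0, and limma with library weights called 6. The log2 differences of Srf and Myocd were -0.11 and -0.45 (limma adjusted p 0.720 and 0.389). The median of the SRF list was -0.32 and that of the crosslinkers was 0.22, against -0.03 over all genes tested.

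**Figure D4:**
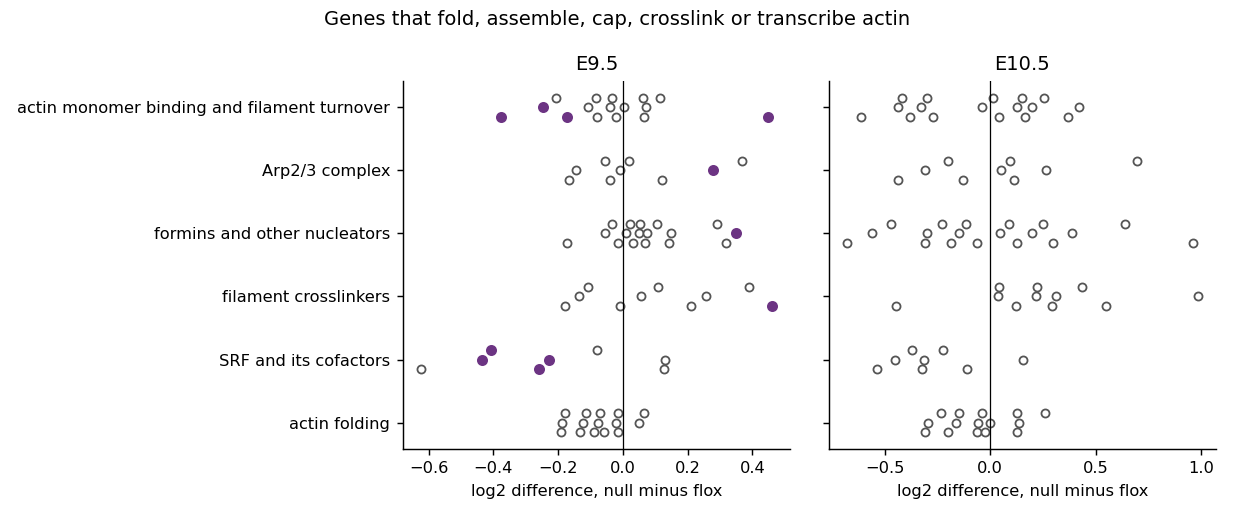
Log2 difference of null minus flox hearts for each tested gene of 6 actin-related lists at E9.5 (left) and E10.5 (right); filled points passed limma's adjusted p under 0.05. At E9.5, 11 of 75 points are filled, 4 of them in the SRF list and all 4 below 0, and at E10.5 none of 79 is filled.

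For each actin gene the 3 genes with the most similar pattern were taken by Pearson's r of log2(RPKM + 0.5), centred within each stage, over the 16 libraries and 12293 genes. The libraries share the contrast of null and flox and their makeup of cells, so r describes likeness in these libraries only. Acta1 was closest to the peptide hormone gene Cck (0.97), the keratin gene Krt8 (0.96) and the muscle creatine kinase gene Ckm (0.95). Actc1 was closest to Mybpc3, the cardiac myosin-binding protein C gene (0.92), Got1 (0.92) and Asb2 (0.91), and Acta2 to Myl7, the desmin gene Des and the calponin gene Cnn1 (0.92 to 0.93). Actg2 was closest to Gstt1 (0.92), Stap2 (0.90) and Rab3b (0.90), and Actb to Abhd14b (0.95), Mms19 (0.94) and Ldb1 (0.93). Actg1 was closest to Mir6935 (0.93), a microRNA gene that lies inside it and whose 48 to 229 reads per library cannot be told apart from those of Actg1, and then to A930013F10Rik (0.88). Within the family r was highest for Actc1 and Acta2 (0.81), Acta1 and Actb (0.795), and Acta1 and Actg2 (0.79), and it was 0.25 for Acta1 and Actc1.

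CHD4 peaks of wild-type hearts at E10.0 counted as shared where all 3 lists overlapped, by 1 bp or more. A shared peak lay within 5 kb of 5 of 6 actin genes, against 69.2% of tested genes and 82.7% of the fifth of genes with the highest expression, so the count is near the background. Actg2 (chr6:83512909-83536251) had no peak in any list within 5 kb. Counts of shared regions were 8 each for Actc1, Actb and Actg1 and 1 each for Acta1 and Acta2. These are not counts of separate sites, because several regions can be pieces of 1 wide peak. In list 1 such wide peaks were chr2:114045259-114047670 at Actc1, chr5:142896051-142899369 at Actb and chr11:120348881-120351316 at Actg1. With an overlap of at least 50% of the shorter peak required, Acta2 no longer had one.

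The placement of the peaks differed between the genes. At Actg1 (chr11:120345687-120348495, minus strand) a shared peak, chr11:120348381-120348636, lay over the annotated 5′ end and took in 141 of the 250 bases printed above, among them the CArG box CCATATATGG. By the authors' score this peak stood in the top 0.352%, 2.10% and 0.388% of lists 1, 2 and 3, the highest of the actin genes in each of lists 1 and 3 and level with a peak of Actb in list 2. At Acta2 (chr19:34240336-34255585, minus strand) the shared region, chr19:34255394-34255455, took in 62 bases of the printed window, which ends at a start inside the annotated span, with the whole of CCTTGTTTGG and 8 bases of CCCTATATGG.

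At Actc1 (chr2:114047282-114052875, minus strand) lists 1 and 2 covered all 250 bases of the printed window and list 3 none, so no shared region lay there, and the nearest upstream one, chr2:114053507-114053728, was 632 bases from the gene. Of its 8 shared regions 3 lay beyond the 3′ end, 3 inside the gene and 2 upstream, the longest being chr2:114046594-114047232. At Acta1 (chr8:123891758-123894775, minus strand) no list had a peak in the printed window, and the 1 shared region, chr8:123891440-123891596, lay 162 bases beyond the 3′ end. It stood in the top 61.8%, 10.5% and 32.8% of the lists. At Actb (chr5:142903115-142907976) 2 of the 8 shared regions lay inside the gene, the longer being chr5:142906330-142907090, in the top 1.01%, 2.10% and 2.66% of the lists. The peaks were mapped in wild-type hearts only, so they show where CHD4 was found and not a change with its loss.

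**Figure D5:**
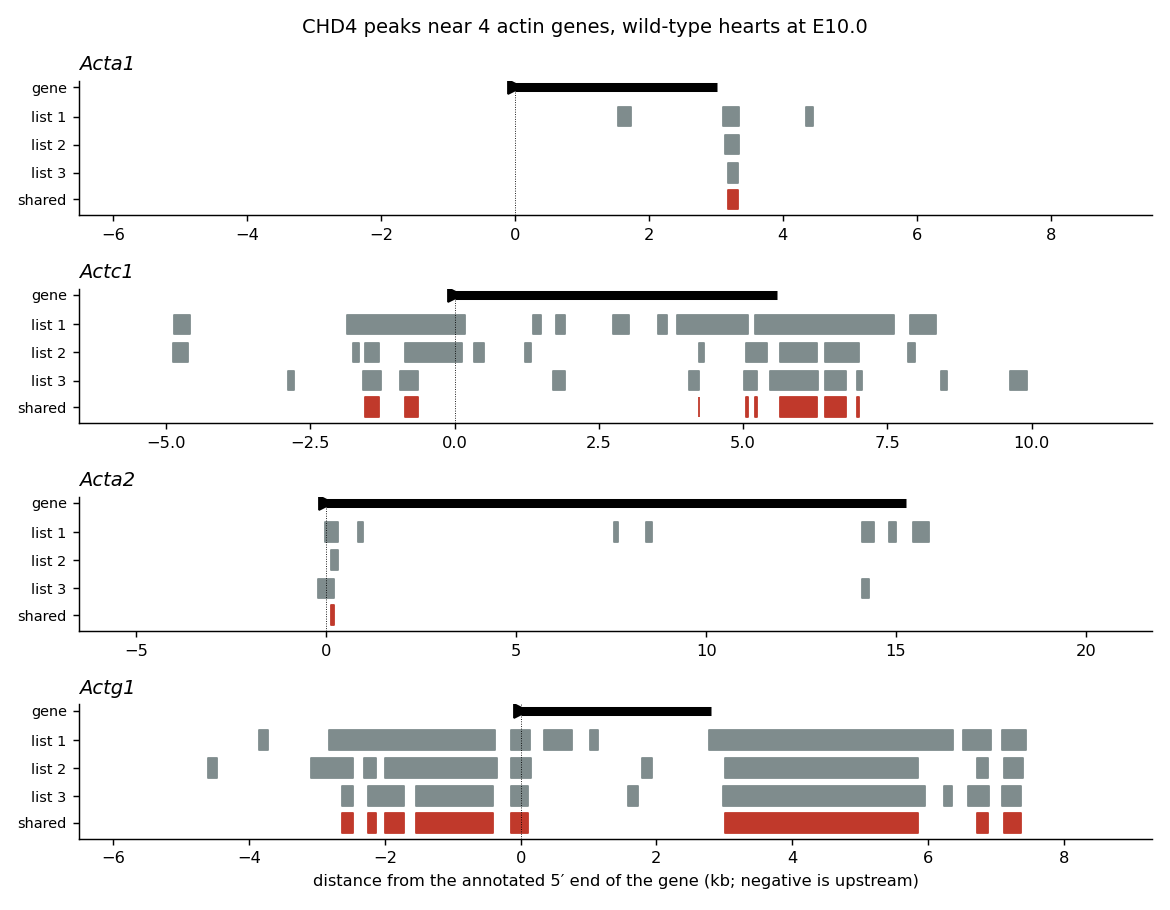
CHD4 peaks within 5 kb of 4 actin genes in each of the 3 lists (grey) and the regions shared by all (red), by distance from the annotated 5′ end in kb, with the gene drawn in black and transcription running to the right. Actg1 has a shared region over its 5′ end, Acta1 has its 1 shared region beyond the 3′ end, and Actc1 has peaks over its 5′ end in lists 1 and 2 that meet a list 3 peak further upstream, 632 bases from the gene.

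The genes next to the actin genes were read to see whether a neighbour moved too. C130080G10Rik, a non-coding RNA gene 1521 bases from Actc1, averaged 12.5 RPKM in null and 19.0 RPKM in flox hearts at E9.5 (log2 difference -0.59, limma adjusted p 0.00522), and 9.04 RPKM in null and 15.4 RPKM in flox hearts at E10.5 (-0.70, limma adjusted p 0.151). Nup133, 2339 bases from Acta1, had log2 differences of -0.03 and -0.08 at the 2 stages, Stambpl1 beside Acta2 had 0.16 and 0.29, and 0610009L18Rik beside Actg1 had 0.27 and 0.19, none of them called. The sources used here do not give whether reads were counted by strand, so reads of an overlapping antisense gene cannot be separated from those of an actin gene.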

How the data were processed

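Expression values are RPKM as deposited by the authors, scaled by their deposited gene length (other) and the reads of each library. Per the submitters' processing notes the work used the build mm10 and, in no stated order, MACS2, HTSeq 0.6.2, Bowtie 1.2.0, DESeq2 1.6.3, bedtools 2.25.0 and SAMtools 1.6. The smallest value above 0 of RPKM times length in each library was taken as 1 read, and depth was inferred from it. All values were then whole reads within 0.01. Reads on genes were 14.6 to 20.0 M per library, and few reads limit Actg1 and Actg2. Per the file headers, log2 fold changes and p-values of the deposited comparison tables come from the authors' DESeq2 run. Peak heights are the authors' deposited score per list.

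For each stage limma 3.58.1 (R 4.3.3, trend, two-sided, no covariate) was fitted to log2(RPKM + 0.5), a scale that understates changes of low genes, over all genes whose mean reached 0.5 RPKM. An interaction over the 16 libraries gave the stage difference. "Called" means a Benjamini-Hochberg adjusted p under 0.05 over every gene tested, and each adjusted p printed for a gene comes from limma. The p-values measure the spread between libraries. The fit was tried on simulated counts in which every gene had the same dispersion and cell makeup did not differ between libraries. That trial therefore does not cover differences in makeup.

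The members, lists, pairs and settings were chosen with earlier results of these data known. Named genes are the 6 actin genes, Chd4, up to 3 called genes of smallest p per list and stage, the SRF list, the 3 genes most like each actin gene and marker genes where a list moved with a result. Coro1b, the other markers named and the neighbours were chosen after their values were seen. Library columns named WT and KO in the tables were read as flox and null. Other settings were pseudocounts of 0.1 and 1, no filter on low values or a mean of 1 RPKM, median and quantile scaling, rescaling without the most abundant genes, voom on recovered reads, library weights, a block by replicate number, covariates (erythroid level, epicardial level, sex by Xist) and leaving out libraries. Python 3.11.15 with pandas 2.3.3, scipy 1.17.1, numpy 2.4.6 and matplotlib 3.10.9, and bedtools 2.31.1, served for peaks and plots. The 2 ChIP inputs were not analysed here. 1 gene that the rule for similar patterns names is not reported here.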

Additional observations from a re-analysis of the deposited data

Results flagged for a closer look

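Acta1 in null hearts at E9.5 had 1 library apart from the rest: library 5 was at 717.5 RPKM, and the next lowest was at 877 RPKM in a group whose highest was at 926 RPKM. It was the 1 sample marked among 38 groups examined in this way, and chance marks about 1 group in 20. Without it the log2 difference stayed called.

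The difference of Acta1 between null and flox hearts differed between the stages, with a log2 value 1.54 higher at E10.5 (limma adjusted p 0.0298). All null libraries lay above all flox libraries at both stages. This contrast lost its call without any 1 of 7 libraries.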

How the results depend on the processing

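Acta1 kept its direction in all 24 other settings at E9.5 (0.66 to 1.10) and in all 20 tried for E10.5 (2.05 to 2.74). The actin genes called at E9.5, 2 in the report, were 1 with no filter, 1 with median scaling, 0 with the erythroid covariate, 1 with the sex of the library as covariate, and 3 with library weights or the replicate block, Actg2 being the third (limma adjusted p 0.0130 with the block). Those called at E10.5, also 2, were 1 with no filter, 1 with the erythroid covariate, 0 with the epicardial covariate and 1 with the sex covariate. For the stage difference the 1 call became 2 with quantile scaling, 0 with library weights and 3 with the replicate block. Leaving out 1 library gave 1 to 2 calls at either stage and 0 to 3 for the stage difference. Pathway genes called at E9.5, 11 in the report, were 18 with the replicate block, 0 with the erythroid, 6 with the epicardial and 2 with the sex covariate, and 5 to 16 with 1 library left out. At E10.5 the 0 became 6 with library weights and stayed 0 with 1 library left out. The 5 adjusted pair ratios called at E9.5 were 5 with any 1 library left out and 0 with the replicate block, where 5 pairs cannot go below 0.0625; at E10.5 they were 0 in all. Settings chosen after seeing the data left out 3 E9.5 libraries with low epicardial markers, which gave 7 pathway calls at E9.5 and 0 calls for the stage difference, or the 2 most erythroid E10.5 libraries, which gave 1 actin call at E10.5 and 0 for the stage difference. The cause of these changes was not tested. Same-numbered libraries correlated between -0.14 and 0.52 at E9.5, with 3 of 5 pairs over 0.1, and between -0.03 and 0.11 at E10.5, with 1 of 3; 6 of 10 and 3 of 6 libraries correlated best with their own number. The labels give no shared litter or day and not every pair passed 0.1, so the numbers were not taken as pairs, although some E9.5 pairs deviate together; the block raised the calls over all genes at E9.5 to 3698. Over all genes the calls were 2342 at E9.5 (64 to 3698 in other settings), 292 at E10.5 (62 to 1426) and 531 for the stage difference (4 to 1795). Rises were 40.0% of calls at E9.5 as deposited and 52.5% with median scaling, and 65.7% and 50.6% for the stage difference. The 5 genes with a shared peak were 4 to 6 in other settings. Low reads limit Actg1 and Actg2.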
